A study of Mus musculus with 12 samples.

Results

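The genes described here are 47 genes of the lysosome, chosen by name: the cathepsins, the other hydrolases with the proteins they need, the proteins of the lysosomal membrane together with the regulator Tfeb, and the subunits of the proton pump. A gene was taken as measured where the platform annotation gives exactly 1 symbol to a transcript cluster, which is the set of probes of 1 transcribed region. This found 46 of the 47, among 14860 genes measured in that way, on arrays that hold 23332 transcript clusters in all. Cd63 was not matched and is not reported. Ppt1 had more than 1 cluster and is given by the cluster of the higher mean level.

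The macrophages were grown from the femoral bone marrow of male Balb-C mice of 8 to 9 weeks, in medium with 10000 U/ml of CSF1, the growth factor of this lineage, for 7 days. They were then given 10 U/ml of recombinant mouse interferon-beta (Ifn-β), the type I interferon that cells release on viral infection. RNA was collected before the interferon was added (0 h) and 1, 2, 4, 8 and 24 h after it, and 2 samples of 300 ng per time, 12 in all, were hybridised to Affymetrix Mouse Exon 1.0 ST arrays. All cells carried the same CSF1 treatment, and no culture without Ifn-β was measured at the 5 later times, so the time in culture and the time after Ifn-β cannot be told apart. The arrays of a time are named as biological replicates, but their RNA is also described as drawn from separate wells. The p-values therefore measure the spread between these samples, which may be technical. They are given here by the numbers that their labels carry: 2 and 4 for 0 h, 5 and 8 for 1 h, 10 and 12 for 2 h, 15 and 16 for 4 h, 18 and 23 for 8 h, and 17 and 22 for 24 h. Values of a pair are printed in this order.

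Lysosomes are the acidic compartments in which cells break down material that they take up, together with worn parts of their own. Soluble hydrolases cut proteins, sugars and lipids in the lumen, highly glycosylated membrane proteins line the inner face, and a proton pump (the V-ATPase) keeps the lumen acid by coupling the cleavage of ATP in its V1 part to the transport of protons through its V0 part. Macrophages are rich in lysosomes because they digest whole particles, and cathepsins also trim the antigens and the invariant chain of the MHC class II path. Tfeb and its relatives Mitf, Tfe3 and Tfec are transcription factors that bind short palindromic sites at the promoters of many lysosomal genes.

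Such sites were looked for in the promoter window that RefSeq annotation of the GRCm38.p6 assembly gives for each gene, 250 bases before to 50 bases after its annotated start. The array values carry no coordinates, so these positions are those of the reference only. A window was at hand for 37 of the 46 measured genes and for 27025 genes overall. The core CACGTG, searched on both strands, stood in the windows of 11 of the 37 (29.7%) and of 8.09% of all genes. The longer palindrome TCACGTGA, which contains that core, stood in 6 of the 37 (16.2%) and in 1.12% of all genes. The 6 were the hydrolases Ctsa, Ctsd and Gla, the calcium channel Mcoln1, and the pump subunits Atp6v0d1 and Atp6v1a. The shares over all genes were not matched for base content. The 8 copies in the 6 genes are printed with 10 bases on each side, 5′ to 3′ in the direction of the gene and with the palindrome in capitals.
Ctsa, chr2:164833750-164833777, plus strand: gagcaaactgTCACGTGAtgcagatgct
Ctsa, chr2:164833767-164833794, plus strand: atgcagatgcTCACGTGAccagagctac
Ctsd, chr7:142387909-142387936, minus strand: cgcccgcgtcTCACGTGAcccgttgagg
Gla, chrX:134601216-134601243, minus strand: aagcgattgaTCACGTGAgcatctacgt
Gla, chrX:134601183-134601210, minus strand: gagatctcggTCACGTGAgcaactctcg
Mcoln1, chr8:3500463-3500490, plus strand: ggcgccccgcTCACGTGAccgcggcgca
Atp6v0d1, chr8:105566051-105566078, minus strand: cctactgcggTCACGTGAgacgcggtgc
Atp6v1a, chr16:44139374-44139401, minus strand: tttttttaaaTCACGTGAtaggcttaac

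Sites of the kind that interferon factors bind were searched for as well. The pattern of GAAA, any 2 bases and GAAA again stood on either strand in 4 of the 37 windows (10.8%), those of Ctso, Ctss, Lamp1 and Atp6v1d, and in 3.99% of all genes. The copy of Ctss is shown for its place 21 bases before the start, with the match in capitals.
Ctss, chr3:95526755-95526784, plus strand: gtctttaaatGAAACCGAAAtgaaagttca
The pattern TTCNNNGAA, in which N is any base and which reads the same on both strands, stood in 1 of the 37 windows (2.7%), that of Ctsc, and in 9.55% of all genes. The 250 bases before the start are printed for the 2 genes with a window that were called as changed, Ctsc with its TTCNNNGAA match and Gla with its copies of TCACGTGA in capitals. A match is a stretch of letters and was not tested as a binding site.
Ctsc, chr7:88277835-88278084, plus strand: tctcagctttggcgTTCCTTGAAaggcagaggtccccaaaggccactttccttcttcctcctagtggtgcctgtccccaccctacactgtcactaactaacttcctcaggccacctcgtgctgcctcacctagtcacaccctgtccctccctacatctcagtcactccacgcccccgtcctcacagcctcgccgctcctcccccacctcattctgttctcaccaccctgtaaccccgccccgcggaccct
Gla, chrX:134601006-134601255, minus strand: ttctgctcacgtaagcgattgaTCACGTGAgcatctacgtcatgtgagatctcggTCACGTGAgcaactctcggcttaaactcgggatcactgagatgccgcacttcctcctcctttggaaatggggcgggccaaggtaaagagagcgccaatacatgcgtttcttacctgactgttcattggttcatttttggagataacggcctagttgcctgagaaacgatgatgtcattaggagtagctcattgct

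The lysosomal genes were mostly read at high levels, and most of them moved little over the 24 h. On the log2 RMA scale, where a step of 1 is a doubling, the mean levels over the 12 arrays ran between 7.62 (Tfeb) and 13.72 (Ctsd) with a median of 11.64. A level depends on the probes of each gene, so it does not rank the genes by amount of RNA. Of the 46, 38 lay above the 90th percentile of the 14860 genes with exactly 1 symbol. The highest value on an array, of any cluster, was between 13.98 and 14.20, so the readings of Ctsb, Ctsd and Psap, with means of 13.66, 13.72 and 13.70, stood close to the top of the scale. The means of the 6 times differed by as little as 0.05 (Ctsb) and by as much as 1.13 (Ctse), with a median range of 0.30.

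**Figure D1:**
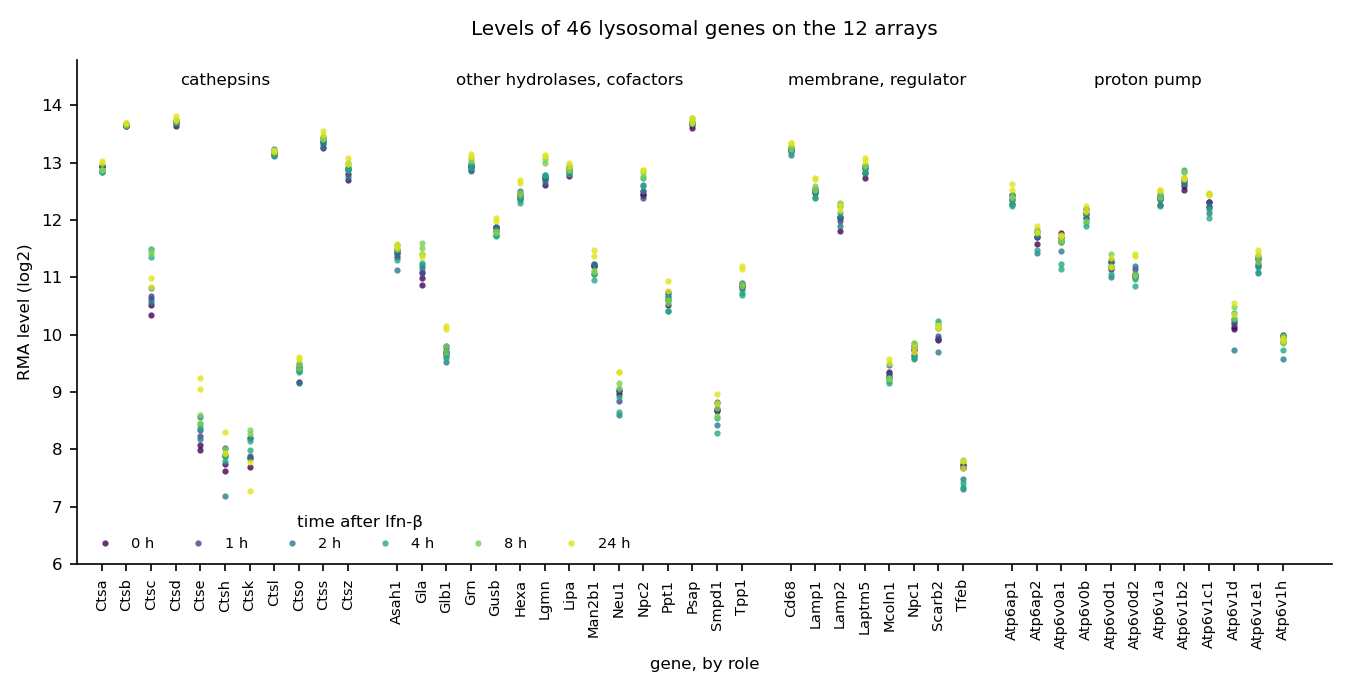
Log2 RMA level of each of the 46 measured lysosomal genes (by name within each role, along the horizontal axis) on all 12 arrays, with colour for the time after Ifn-β. Most genes form a tight column of 12 points, while Ctsc, Ctse, Ctsh and Ctsk spread over more than 1 log2 unit; heights of different genes are not comparable as amounts.

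A cluster was called at a time when its change from 0 h reached 1.5-fold, 0.585 on the log2 scale, with a Benjamini-Hochberg adjusted p under 0.05 over all 23332 clusters in limma. At 1 h no lysosomal gene was called up, where 0.467% of all clusters were, or down, where 0.0814% were. At 2 h none was called up (1.54% of all clusters) or down (0.621%). At 4 h, 1 of the 46 (2.17%) was called up and none down, against 3.59% and 3.95% of all clusters. At 8 h, 2 (4.35%) were called up and none down, against 1.5% and 0.544%. At 24 h, 1 (2.17%) was called up and none down, against 0.613% and 0.836%. The calls were Ctsc at 4 h and 8 h, Gla at 8 h and Ctse at 24 h, so 3 genes were called up at some time, 43 at none, and none was called down. With the p left unadjusted, the counts past 0.05 and 1.5-fold stayed 0, 0, 1, 2 and 1 over the 5 times, none of them downwards. Of the 23332 clusters, 873, 1634, 2774, 1445 and 1564 passed both, in either direction. Without the fold the counts were 0, 3, 7, 9 and 15 of the 46, and 1480, 3041, 5355, 3236 and 3144 of the 23332 clusters. A moderated F test in limma over the 6 times passed for 3 of the 46 (6.52%), the same 3 genes, and for 7.97% of all clusters, so the share of the lysosomal genes was near that of the arrays as a whole. In whole cultures, fewer cells of a kind and less RNA per cell cannot be told apart. For 29 of the 46 (63%) the 95% interval of the change lay inside 1.5-fold in both directions at all 5 times, as it did for 28.4% of all clusters. These shares were not matched for level, and most of the lysosomal genes read high.

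**Figure D2:**
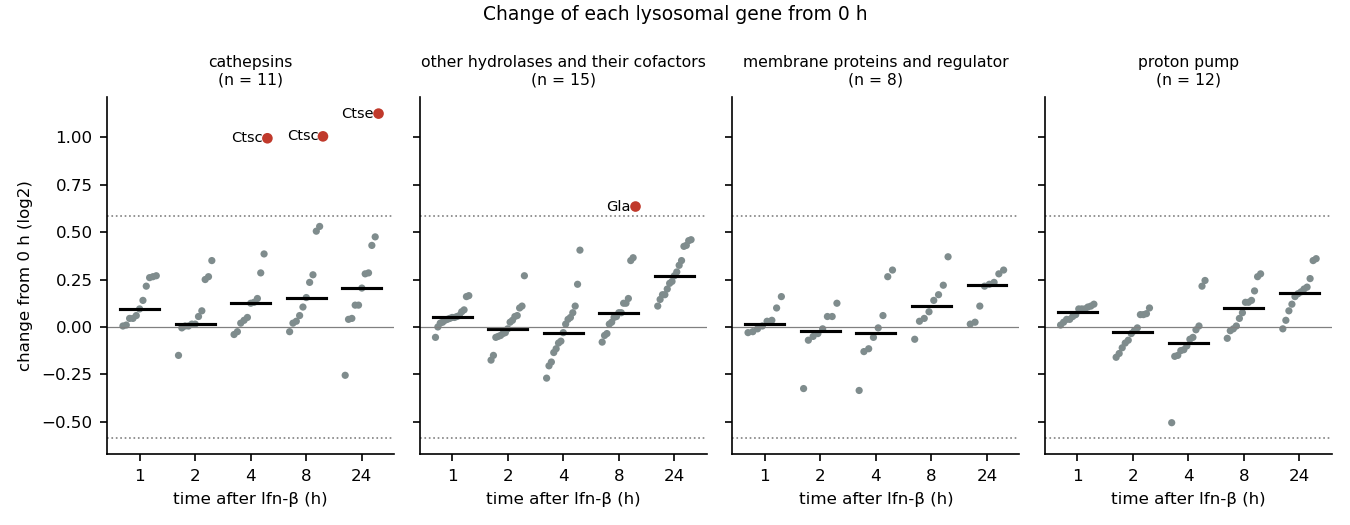
Change of each lysosomal gene from 0 h (log2) at 1, 2, 4, 8 and 24 h, in 1 panel per role. Each point is a gene, ordered by size within a time, bars are medians, dotted lines mark 1.5-fold, and the red points are the 4 calls of Ctsc, Gla and Ctse, all of them rises.

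Of the 11 cathepsins, 2 were called. Ctsc, a dipeptidyl peptidase that activates the serine proteases of leukocyte granules, read 10.52 and 10.34 before Ifn-β, 10.62 and 10.67 after 1 h, 10.82 and 10.57 after 2 h, 11.49 and 11.36 after 4 h, 11.46 and 11.41 after 8 h and 10.98 and 10.83 after 24 h. All 4 arrays of 4 h and 8 h stood above the other 8 without overlap. Ctsc was raised by 0.995 at 4 h (SE 0.124, limma adjusted p = 0.00192) and by 1.005 at 8 h (SE 0.124, adjusted p = 0.00397), a 2.01-fold rise. At 24 h the change of 0.48 from 0 h was not called (adjusted p = 0.127), and the level was 0.52 lower than at 4 h (adjusted p = 0.0377), short of 1.5-fold. Both calls of Ctsc were kept whichever array was left out. When the fit held only the arrays of the 2 times compared, the call at 8 h was lost (adjusted p = 0.0832).

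Ctse, an aspartic protease of endosomes, moved late. It read 8.07 and 7.98 before Ifn-β, 8.33 and 8.24 after 1 h, 8.57 and 8.18 after 2 h, 8.45 and 8.37 after 4 h, 8.60 and 8.46 after 8 h and 9.25 and 9.05 after 24 h. The pair at 24 h was above all 10 earlier arrays, and the pair at 0 h was below all 10 later ones. The rise at 24 h was 1.13 (SE 0.145, limma adjusted p = 0.0106), or 2.18-fold. Without array 17, 22, 2 or 4 the adjusted p was between 0.0638 and 0.1, so this call needs all 4 arrays.

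The other 9 cathepsins were not called at any time. Ctsk, a collagen-cutting cysteine protease best known from osteoclasts, read 7.85 and 7.70 before Ifn-β, 8.20 and 7.88 after 1 h, 8.20 and 7.85 after 2 h, 8.14 and 7.98 after 4 h, 8.34 and 8.27 after 8 h and 7.77 and 7.27 after 24 h. It was the only lysosomal gene whose lowest mean fell at 24 h, with changes from 0 h of 0.53 at 8 h (SE 0.197, limma adjusted p = 0.274) and -0.26 at 24 h (adjusted p = 0.637). Ctsh, an aminopeptidase, read 7.75 and 7.63 before Ifn-β, 8.03 and 7.89 after 1 h, 7.90 and 7.18 after 2 h, 7.89 and 7.79 after 4 h, 7.92 and 8.01 after 8 h and 8.30 and 7.94 after 24 h. Its arrays of 2 h lay 0.72 apart, which is wider than its change of 0.43 at 24 h (SE 0.222, adjusted p = 0.452).

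The readings of the 3 uncalled cathepsins of the highest level were nearly constant and lay near the top of the scale, and whether a change in RNA would show at such readings was not tested. Ctsb, a cysteine protease, lay between 13.64 and 13.70 on all 12 arrays, and its change at 24 h was 0.05 with a 95% interval from -0.15 to 0.24. Ctsd, an aspartic protease, lay between 13.64 and 13.82, with a change at 24 h of 0.12 and an interval from -0.09 to 0.32. Ctss, the cysteine protease that removes most of the invariant chain from MHC class II molecules, read 13.55 and 13.48 at 24 h against 13.37 and 13.25 at 0 h. The arrays of 24 h were higher without overlap, and the change of 0.21 (interval -0.01 to 0.42) was not called (limma adjusted p = 0.393). Of the remaining cathepsins, Ctsa, Ctsl, Ctso and Ctsz, the changes ran between -0.04 and 0.29 over all 5 times.

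Among the 15 other hydrolases and cofactors, 1 was called. Gla, the alpha-galactosidase that is missing in Fabry disease, read 10.99 and 10.86 before Ifn-β, 11.10 and 11.08 after 1 h, 11.22 and 11.17 after 2 h, 11.41 and 11.25 after 4 h, 11.60 and 11.52 after 8 h and 11.40 and 11.36 after 24 h. The means climbed at each step up to 8 h, and no later array overlapped with those of 0 h. The rise at 8 h was 0.64 (SE 0.101, limma adjusted p = 0.0163), or 1.55-fold. At 4 h the change was 0.41 (adjusted p = 0.043), under the fold set, and at 24 h it was 0.46 (adjusted p = 0.0777). The call at 8 h was lost without array 2, 4, 18 or 23 (adjusted p between 0.0626 and 0.151), and with quantile normalization applied again the change was 0.52, below 1.5-fold.

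Lgmn, the asparaginyl endopeptidase that processes several cathepsins, read 12.72 and 12.61 before Ifn-β, 12.75 and 12.74 after 1 h, 12.78 and 12.67 after 2 h, 12.77 and 12.78 after 4 h, 13.00 and 13.06 after 8 h and 13.13 and 13.12 after 24 h. The arrays of 8 h and 24 h were above all the others, and the change of 0.46 at 24 h was just short of the call (SE 0.0932, limma adjusted p = 0.057). Npc2, which carries cholesterol inside the lysosome, read 12.44 and 12.45 before Ifn-β, 12.51 and 12.38 after 1 h, 12.61 and 12.50 after 2 h, 12.60 and 12.74 after 4 h, 12.76 and 12.83 after 8 h and 12.88 and 12.87 after 24 h. Its mean was 0.43 higher at 24 h than at 0 h (SE 0.101, adjusted p = 0.0916). Glb1, the beta-galactosidase, read 9.69 and 9.70 before Ifn-β, 9.80 and 9.67 after 1 h, 9.77 and 9.53 after 2 h, 9.62 and 9.60 after 4 h, 9.70 and 9.80 after 8 h and 10.15 and 10.09 after 24 h. Only its pair at 24 h left the range of the other arrays, with a change of 0.43 (SE 0.111, adjusted p = 0.127).

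Psap, the precursor of the saposins that present lipids to their enzymes, stayed between 13.61 and 13.78 and changed by at most 0.13 (at 8 h, 95% interval -0.08 to 0.33). The other 10 genes of this role cut or guard quite different substrates. Hexa, Gusb, Man2b1 and Neu1 act on sugar chains, Lipa, Asah1 and Smpd1 on lipids, Ppt1 on fatty acid anchors and Tpp1 on peptides, and Grn is the precursor of the granulins. None of the 10 was called against 0 h, and their changes at 24 h were all positive, between 0.15 (Asah1) and 0.35 (Neu1).

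**Figure D3:**
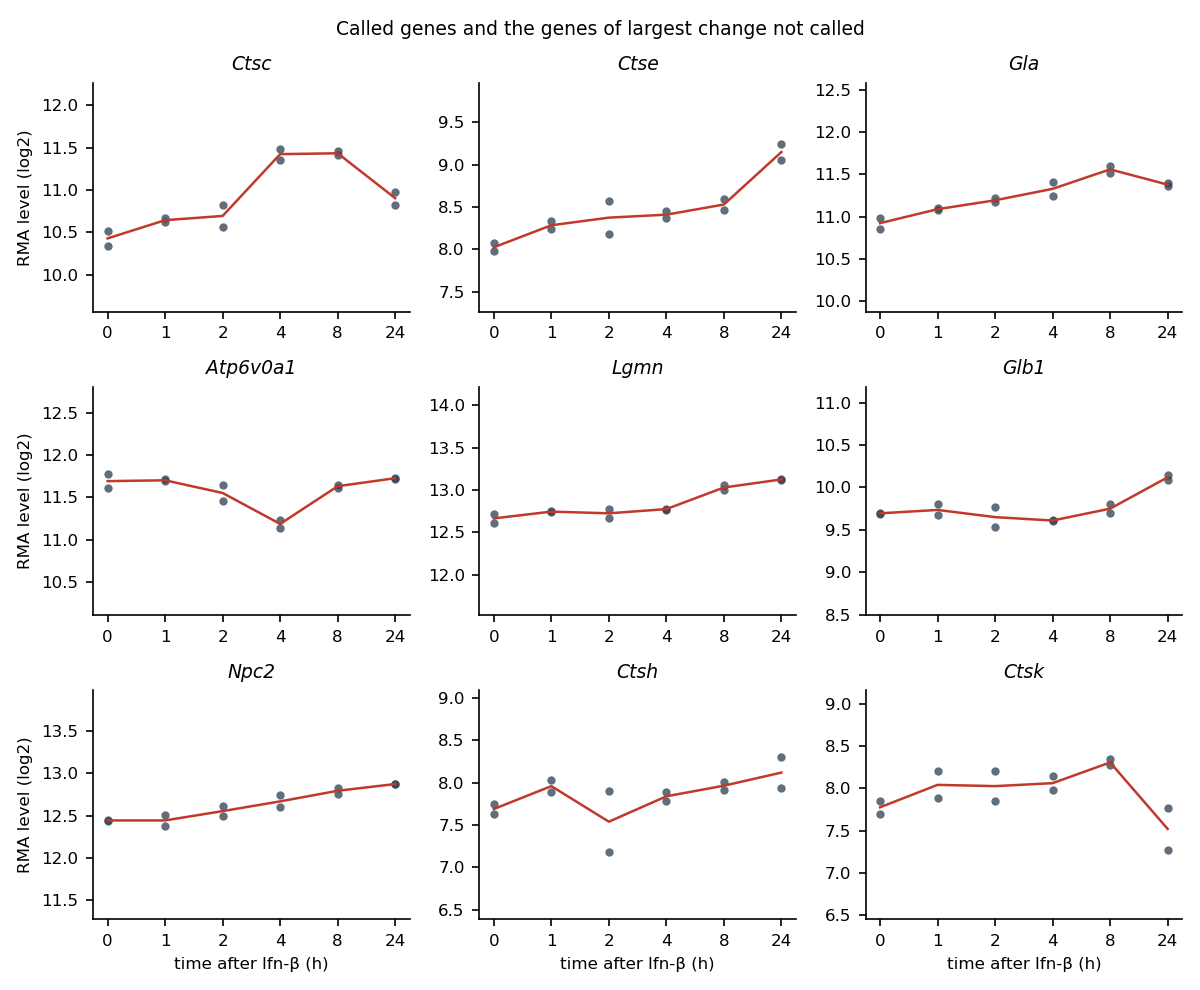
Log2 RMA level on each array (points) and mean (line) over time after Ifn-β for the 3 called genes Ctsc, Ctse and Gla and the 6 genes with the largest changes that were not called. All panels span the same number of log2 units, and Ctsc peaks at 4 h and 8 h, Ctse at 24 h and Gla at 8 h, while Atp6v0a1 dips at 4 h.

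None of the 8 measured membrane proteins and regulators was called at any time. Lamp1 and Lamp2, the main glycoproteins of the lysosomal membrane, differed from 0 h by 0.22 and 0.30 at 24 h (limma adjusted p = 0.378 and 0.296). Lamp2 was highest at 8 h, when it read 12.30 and 12.28 against 12.03 and 11.81 at 0 h. Scarb2, which carries beta-glucocerebrosidase to the lysosome, was the only lysosomal gene with its highest mean at 4 h. It read 10.19 and 10.24 at 4 h against 9.92 and 9.91 at 0 h, a change of 0.30 (adjusted p = 0.238). Cd68, a heavily glycosylated macrophage protein, lay between 13.14 and 13.34. The cholesterol exporter Npc1, Laptm5 and the calcium channel Mcoln1 changed by -0.13 to 0.28 over the 5 times.

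Tfeb, the regulator among the genes, had the lowest level of the 46 and dipped early. It read 7.70 and 7.74 before Ifn-β, 7.72 and 7.67 after 1 h, 7.48 and 7.31 after 2 h, 7.42 and 7.35 after 4 h, 7.79 and 7.81 after 8 h and 7.79 and 7.68 after 24 h. The 4 arrays of 2 h and 4 h were below the other 8 without overlap. The changes of -0.33 at 2 h (limma adjusted p = 0.188) and -0.34 at 4 h (adjusted p = 0.0807) were not called.

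The 12 measured subunits of the proton pump were not called at any time against 0 h. The largest difference was in Atp6v0a1, the large membrane subunit of V0, which read 11.77 and 11.61 before Ifn-β, 11.69 and 11.71 after 1 h, 11.64 and 11.46 after 2 h, 11.14 and 11.23 after 4 h, 11.65 and 11.61 after 8 h and 11.73 and 11.72 after 24 h. The arrays of 4 h were below all the others. The change of -0.51 at 4 h had an adjusted p of 0.0214 in limma (SE 0.105) but did not reach 1.5-fold, and with quantile normalization applied again it did (-0.59, adjusted p = 0.00119). At 24 h its change from 0 h was 0.04.

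The other V0 subunits, Atp6v0b, Atp6v0d1 and Atp6v0d2, changed by -0.16 to 0.36. The highest of these values was that of Atp6v0d2 at 24 h, a d subunit also known from osteoclasts, which read 11.41 and 11.38 at 24 h against 11.06 and 11.01 at 0 h (limma adjusted p = 0.165). The V1 subunits that bind and cleave ATP, Atp6v1a and Atp6v1b2, changed by -0.02 to 0.27. The other V1 subunits, Atp6v1c1, Atp6v1d, Atp6v1e1 and Atp6v1h, changed by -0.16 to 0.35, and the accessory proteins Atp6ap1 and Atp6ap2 by -0.07 to 0.26. At 4 h 9 of the 12 pump genes had negative changes (median -0.08), as did 8517 of all 14860 genes. At 24 h 11 of the 12 had positive ones (median 0.18), as did 8624 of all genes.

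Taken as a list, the lysosomal genes stood slightly higher at the last time than before Ifn-β. Over the 5 times in order, the median change of the 46 was 0.05, 0, -0.01, 0.09 and 0.21, and that of all 14860 genes was 0.03, 0, -0.05, -0.005 and 0.04. At 24 h 44 of the 46 had positive changes, as did 8624 of all 14860 genes. Among the 46, Ctsk and Atp6v1h were the exceptions. The highest of the 6 means fell on 24 h for 34 genes and on 8 h for 10, while Scarb2 had it at 4 h, Atp6v1h at 1 h and no gene before Ifn-β. The lowest fell on 4 h for 20 genes, on 0 h for 16 and on 2 h for 9, with Ctsk at 24 h. The times of the highest and lowest means were not counted over all genes. The late difference was found in every role, with medians at 24 h of 0.21 for cathepsins, 0.27 for the other hydrolases, 0.22 for the membrane proteins and regulator and 0.18 for the pump.

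The arrays themselves showed the same order. Both arrays of 24 h were above both of 0 h for 39 of the 46 (84.8%), as they were for 24.4% of all clusters, and they were below both of 0 h for none, as for 23.4% of all clusters. The 39 were made up of 9 of 11 cathepsins, all 15 other hydrolases, 6 of 8 membrane proteins and regulators and 9 of 12 pump genes. The 46 genes are measured on the same 4 arrays, are not 46 independent readings and were not matched for level with all clusters. The arrays of a time also differed between themselves across the list: array 17 was above array 22 for 41 of the 46, by a median of 0.06 (0.05 over all clusters), and array 2 above array 4 for 39, by 0.08 (0.06 over all clusters). The size of the late difference depended on the scaling of the arrays. With quantile normalization applied again, the median at 24 h was 0.14 for the lysosomal genes and 0.08 for all genes, and both 24 h arrays were above both 0 h arrays for 33 of the 46 (71.7%) and 32% of all clusters. With the arrays centred on their upper quartile these were 0.27 and 0.10, and 43 of the 46 (93.5%) and 30.3%.

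At 4 h the lysosomal genes were split. Both arrays of 4 h were below both of 0 h for 15 of the 46 (32.6%; 35.7% of all clusters) and above them for 14 (30.4%; 19.6% of all clusters). None of the 11 cathepsins was among the 15, and 6 were among the 14, while 7 of the 15 other hydrolases and 5 of the 12 pump genes were among the lower ones. The sign of the median at 4 h was not settled, being -0.08 with quantile normalization applied again and 0.15 with centring on the upper quartile, which moved the median of all genes to 0.11. At 2 h the pair of arrays differed across the list, array 10 being above array 12 for 43 of the 46, by a median of 0.15, and by 0.17 over all clusters.

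The difference between 24 h and 4 h is taken from the arrays of these times, while its error pools the spread of all 12 arrays. Ctse was called up, with 9.25 and 9.05 at 24 h against 8.45 and 8.37 at 4 h (0.74, SE 0.145, limma adjusted p = 0.0171), and it was the only call, up or down, among the 46. Of all clusters, 3.26% were called up and 3.66% down. A further 5 genes had an adjusted p under 0.05 with a rise short of 1.5-fold, namely Tpp1 (0.46), Atp6v0a1 (0.54), Glb1 (0.51), Man2b1 (0.43) and Atp6v0d2 (0.49). Both arrays of 24 h were above both of 4 h for 34 of the 46 (73.9%), as for 33.8% of all clusters, and the median change was 0.21, against 0.08 over all genes. The call of Ctse was lost without array 17, 22, 15 or 16 (adjusted p between 0.0541 and 0.132), and with only the arrays of 24 h and 4 h in the fit (adjusted p = 0.0534).

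The 6 genes with TCACGTGA in their windows varied among themselves. Their changes lay between -0.13 and 0.41 for 4 h, between -0.07 and 0.64 for 8 h, and between 0.09 and 0.46 for 24 h, with Gla at the upper end each time.

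Relatives of Tfeb, which bind that motif, and the proteins that hold them in check had early calls in both directions. Tfec read 8.91 and 8.80 at 2 h against 8.01 and 7.80 at 0 h and was called up (0.95, SE 0.128, limma adjusted p = 0.00634). At 8 h it read 7.21 and 7.38, below all other arrays, a change of -0.61 that was not called (adjusted p = 0.0565). Mitf read 8.08 and 8.22 at 4 h against 9.14 and 8.94 at 0 h and was called down (-0.89, SE 0.132, adjusted p = 0.00452). Tfe3 was not called at any time and changed by -0.32 at 4 h (adjusted p = 0.274). Flcn, the folliculin that acts with the Rag proteins to keep these factors in the cytoplasm when nutrients are plentiful, read 8.33 and 8.15 at 2 h against 9.15 and 9.00 at 0 h and was called down (-0.84, SE 0.111, adjusted p = 0.00585). Rragd, a Rag protein of the same complex, read 6.59 and 6.71 at 4 h against 7.87 and 7.70 at 0 h and was called down (-1.14, SE 0.204, adjusted p = 0.0112). In all, 12 of the 17 listed regulators were measured, with 1 called up and 1 down at 2 h (1.54% and 0.621% of all clusters) and 2 down at 4 h (3.95%), and at 24 h against 4 h Rragd (1.80), Flcn (0.74) and Mitf (0.72) were called up (3.26%).

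**Figure D4:**
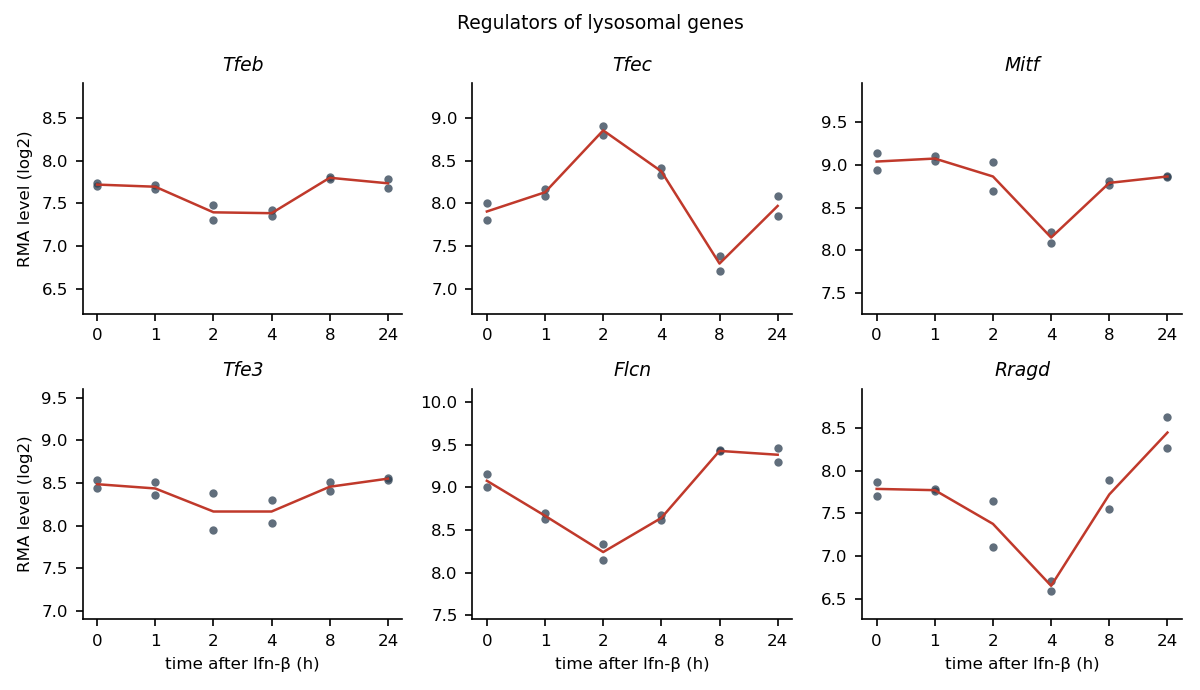
Log2 RMA level on each array (points) and mean (line) over time after Ifn-β for Tfeb, its relatives Tfec, Mitf and Tfe3, and the upstream regulators Flcn and Rragd. Tfec peaks at 2 h, Flcn is lowest at 2 h, and Mitf and Rragd are lowest at 4 h, and all panels span the same number of log2 units.

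Of 28 other enzymes and cofactors, 22 were measured, and none was called against 0 h in either direction in limma. Over the 5 times 0, 0, 6, 4 and 9 of the 22 had an unadjusted p under 0.05. Of the 23332 clusters, 1480, 3041, 5355, 3236 and 3144 did. Their median change was -0.19 at 4 h and 0.27 at 24 h. Between these times, 24 h against 4 h, 5 of the 22 were called up, as were 3.26% of all clusters. They were the acid phosphatase Acp2 (0.92), the nuclease Dnase2a (0.87), Sgsh (0.87), the phospholipase Pla2g15 (0.77) and the hyaluronidase Hyal2 (0.72). Against 0 h these 5 lay lower at 4 h, by between -0.65 (Dnase2a) and -0.295 (Pla2g15). At 24 h their changes from 0 h were between 0.22 (Dnase2a) and 0.575 (Acp2, limma adjusted p = 0.0376, short of 1.5-fold).

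All 19 other membrane proteins and transporters were measured. The nucleoside transporter Slc29a3 read 9.32 and 9.24 at 4 h against 8.48 and 8.29 at 0 h, and it was called up at 4 h (0.90) and 8 h (0.93). Clcn7, the chloride and proton exchanger, was called up at 8 h (0.75) and 24 h (0.59). Cd164 was called up at 4 h (0.71), while the cystine exporter Ctns (-0.67) and the channel Tpcn1 (-0.65) were called down, which makes 2 up and 2 down for 4 h (3.59% and 3.95% of all clusters), 2 up for 8 h (1.5%) and 1 up for 24 h (0.613%). At 24 h against 4 h Ctns was called up (1.03) and Slc29a3 down (-0.59), as were 3.26% and 3.66% of all clusters.

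Of 12 other pump subunits, 8 were measured and 1 was called. Atp6v0a2, which can take the place of Atp6v0a1 in V0, read 9.25 and 9.18 at 4 h against 8.69 and 8.51 at 0 h and was called up (0.62, SE 0.146, limma adjusted p = 0.0352), as were 3.59% of all clusters. This was the time at which Atp6v0a1 read lowest. Atp6v0a2 was highest at 8 h, with a mean of 9.28 and a change of 0.68 (limma adjusted p = 0.0607). By then Atp6v0a1 had a mean of 11.63, against 11.69 at 0 h. Tcirg1, another of the 8, changed by 0.275 at 4 h (limma adjusted p = 0.0942). Its change at 8 h was 0.485 (adjusted p = 0.0281), short of 1.5-fold.

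Of 8 cystatins and serpins that inhibit cathepsins, 3 were measured (Cst3, Cstb and Serpinb6a), and none was called at any time in limma. At 4 h 1 of the 3 had an unadjusted p under 0.05, as did 5355 of the 23332 clusters. At 24 h against 4 h 1 did as well, and 4810 of all clusters. This was Serpinb6a, with a rise of 0.41 (limma adjusted p = 0.028) that fell short of 1.5-fold. Of 13 autophagy genes, 12 were measured, and Sqstm1, the cargo receptor p62, was called down at 4 h (-0.59, limma adjusted p = 0.00499; 3.95% of all clusters) and up at 24 h against 4 h (0.92; 3.26%). Of 8 genes of the MHC class II path that cathepsins serve, 5 were measured, and none was called in limma or had an unadjusted p under 0.05. As a check of the treatment, Ifit1, Ifit2, Irf7 and Cxcl10, 4 of 5 listed interferon genes, were called up at 1, 2, 4 and 8 h. Cxcl10 rose by 5.95 at 4 h, and at 24 h Cxcl10 was no longer called up and the other 3 were.

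The labelled cell type was checked with markers. The medians of 6 macrophage markers were between 11.30 and 11.54 on the 12 arrays, with Csf1r, Adgre1 and Itgam at mean levels of 11.15, 11.84 and 11.41, while Mertk was at 6.88 and Lyz2 was not matched. Cd68, a marker on this list, is also among the lysosomal genes. Summed on the linear scale, the macrophage markers stood at 22360 and 22030 at 24 h and at 22300 and 22780 at 4 h, against 19570 and 19150 at 0 h. Among them Fcgr1, an Fc receptor that responds to interferon, was called up at all 5 times (2.43 at 4 h and 1.14 at 24 h). Adgre1 had its lowest mean at 4 h and its highest at 24 h, when it read 12.08 and 12.06 against 11.77 and 11.64 at 4 h (0.37, limma adjusted p = 0.0575). The part of these markers in the late difference of the lysosomal genes was not tested. The medians of the T cell, B cell, NK cell, neutrophil, dendritic cell, fibroblast and mast cell lists were between 2.86 and 6.35. The T cell list moved with the late difference of the lysosomal genes: its 3 measured markers summed, on the linear scale, to 1384 and 1204 at 24 h against 713 and 693 at 0 h. This was Cd28, called up at 24 h (0.93, limma adjusted p = 0.0272), while Cd3e and Cd3g, which define T cells, lay between 3.60 and 5.74 on all arrays and were not called. The osteoclast list, which matters for Ctsk and Atp6v0d2, summed to 504 and 501 at 4 h and 614 and 583 at 24 h, against 667 and 651 at 0 h. Of its 5 markers only Dcstamp was called against 0 h (-0.81 at 4 h). The mean levels were 8.32 for Dcstamp, 7.20 for Acp5, 6.35 for Ocstamp, 4.90 for Calcr and 4.72 for Oscar. The median of the osteoclast list was between 6.01 (array 2) and 6.64 (array 12).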

How the data were processed

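The deposited log2 values come from RMA, run by the authors on core gene probes with software that the submitters' processing notes name as Affymetrix Expression Console. Its version is not given in the sources used here. RMA normalises the arrays to a common distribution, so a change shared by most transcripts may not show. The deposited cluster values still differed between arrays, with upper quartiles from 7.77 (array 12) to 8.15 (array 10). Precision is limited by the number of arrays. Values were taken as deposited, without a filter on dim probes.

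A linear model with a mean for each of the 6 times was fitted to all 23332 clusters with limma 3.58.1 (lmFit, eBayes) under R 4.3.3, leaving 6 residual and 2.31 prior degrees of freedom, and two-sided p-values were adjusted by Benjamini-Hochberg within each comparison. Of the clusters, 14996 had exactly 1 symbol, 1019 several and 7317 none. Values on every array were given for the genes called against 0 h, the 6 uncalled genes of largest change and the 4 uncalled genes of highest level, and for further genes chosen after their values were seen. Called members of the other lists were named, at most 4 a list by size of change, and Hyal2 and Tpcn1 were added after their values were seen. Genes, lists, markers and the counts of intervals and of non-overlapping arrays were chosen with earlier results of these data known, so no p was computed over a list. Promoters were read from RefSeq windows with Python 3.11.15, pandas 2.3.3 and numpy 2.4.6, and figures were made in matplotlib 3.10.9. The fit was tested on simulated data. Alternatives were other thresholds, fits, scalings, filters and arrays left out, and the non-overlap count under other scalings was added after the data were seen.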

Additional observations from a re-analysis of the deposited data

How the results depend on the processing

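None of the changes of Ctsc, Ctse, Gla, Ctsk, Ctsh, Lgmn, Npc2, Glb1 and Atp6v0a1 recomputed under the alternatives turned direction. The median change turned negative at 1 h with quantile normalization applied again (-0.0022) and positive at 4 h with the arrays centred on their median (0.045) or upper quartile (0.145), without array 2 (0.02) and without array 16 (0.01), while with quantile normalization applied again it was -0.08. At 2 h, where it was 0, it lay between -0.055 (without array 10) and 0.085 (without array 12). With no fold threshold, 2 genes were called up and 1 down at 4 h, and 6 up and 1 down at 24 h against 4 h. With 2-fold, 0 were called up at 4 h, 1 at 8 h and 0 at 24 h against 4 h. With only the 2 times compared in the fit, 0 were called up at 8 h, at 24 h and at 24 h against 4 h. Such a fit shares no spread with the other times. The F test passed for 13 genes at an unadjusted p, 15 with trend and robust eBayes, 10 with array weights, 7 with the lowest 30% of clusters left out and 7 with clusters of 1 symbol only. With quantile normalization applied again, 1 gene (Atp6v0a1) was called down at 4 h, 1 up at 8 h and 1 down at 24 h against 4 h, and 13 passed the F test. With the arrays centred on their upper quartile, 2 genes were called down at 24 h against 4 h, and 9 passed the F test. The cause of these differences was not tested. The share of all clusters called, or past the F test, was not computed under these settings or with an array left out. The counts therefore cannot be set against the arrays as a whole.

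With each array left out in turn, 1 to 2 genes were called up for 8 h, 0 to 1 for 24 h, and 0 to 1 when 24 h was set against 4 h, and 1 to 10 passed the F test. The F test passed for 10 genes without array 10, for 7 without array 12, and for 1 without array 2, 4, 15, 16, 17 or 22. Where 1 array of a time remains, its spread is assumed to equal that of the others. No paired analysis was possible because the array numbers in the labels differ between the times. With 2 arrays a time, an uncalled gene cannot be taken as unchanged.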
